A study of Mus musculus with 2 samples.

Results

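Scavenger receptors and receptors for apoptotic cells are the surface molecules with which myeloid cells take up modified lipoproteins, glycoproteins and dying cells. The genes described here are 10 of the 20653 mouse genes named on the array: Mrc1, Cd163, Msr1, Marco, Stab1, Cd36, Scarb1, Mertk, Axl and Timd4. They were chosen by name, with earlier results of these data known. Every non-control probe whose identifier was a RefSeq transcript of one of them was used, which gave 12 probes. Msr1 and Scarb1 had 2 probes each and the other 8 genes had 1, and each probe was printed in 1 spot per array.

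The question of the comparison was how a high-salt diet changed the transcripts of tumour-infiltrating monocytic myeloid-derived suppressor cells (M-MDSCs), immature monocyte-like cells that restrain T cells in tumours. Female BABL/c mice (the labels' spelling of BALB/c), obtained at 6 to 8 weeks of age, all carried tumours grown from 1000000 cells of 4T1, a mammary carcinoma line of the same strain, placed under the skin after 1 day of starvation. For 16 days 1 group then received a normal-salt diet (NSD), chow of 0.4% NaCl with tap water, and the other a high-salt diet (HSD), chow of 4% NaCl with drinking water of 1% NaCl. M-MDSCs were taken from the tumours with a magnetic isolation kit, and equal numbers of cells were pooled within each diet before RNA extraction, so that each diet was measured on 1 single-colour array and no spread between mice is known. Diet and pool cannot be told apart, no test of the diet was possible, and no p-value is given.

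The receptors fall into families by structure and ligand. Class A scavenger receptors and the mannose receptor bind polyanions, modified lipoproteins and sugar-bearing proteins, class B receptors exchange lipids as well as bind particles, and stabilin-1 and CD163 clear matrix fragments and haemoglobin. Dying cells show phosphatidylserine on their surface, which TIM-4 and stabilin-1 bind directly and which the receptor tyrosine kinases MERTK and AXL reach through the bridging proteins GAS6 and protein S. In tissues these receptors are best known from macrophages, where uptake feeds cholesterol and fatty acids into the cell and engages lipid-sensing nuclear receptors.

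The values are processed signals in intensity units, the brightness of a probe after the scanner software's background correction. Each error beside a signal is the software's own estimate for that spot, about 10% for bright spots, and covers the measurement within an array only. Log2 fold changes are given as HSD minus NSD, each array having first been scaled by its 75th percentile (252 units for NSD, 233 for HSD). A probe counted as measured when the software called it well above background for at least 1 diet. The lowest signals with that call were 4.61 units for NSD and 4.39 units for HSD. Of 39413 probes, 71.9% were well above background for NSD and 72.4% for HSD, and no spot was saturated. A gene was counted as changed at 1.5-fold or more, and its brightest probe stood for it. Signals of different probes are not comparable with each other, so only differences between the diets are set side by side.

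Markers of the labelled cell type were present on both arrays. Ly6c1, a gene of the Ly-6C antigen, had a signal of 51811 units for NSD and 48478 for HSD by its brighter probe. By its dimmer probe it had 4649 and 3210 units, a log2 fold change of −0.42. Itgam, which encodes CD11b, had 31564 and 31043 units by its brightest probe. Markers of neutrophils were as plainly present, since all 8 of the neutrophil genes named on the array were well above background in both groups, with log2 fold changes between −0.059 and 0.15. Ly6c2 and Ly6g were not analysed here.

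The sequences before the transcription starts are shown for Mrc1 and Mertk, the receptors with the largest falls, and for Marco and Axl, whose signals stayed within the scanner error. Each line gives the 250 bases before the start of a RefSeq transcript on the gene's own strand, from assembly GRCm38.p6. For Axl that start lies inside the annotated gene, which reaches base 25788924, so most of the window is within the gene. Capitals mark matches to any of 5 short motifs searched on both strands, which were GAGGAA (the core bound by PU.1), TGCTGAC (a MAF half-site), AGGTCA (a nuclear receptor half-site), TGGAAA (the core bound by NFAT proteins) and TATAAA (the TATA box). The motifs were picked with the receptors' values known. The windows are chr2:14229164-14229413 on the plus strand for Mrc1, chr2:128698665-128698914 on the plus strand for Mertk, chr1:120505025-120505274 on the minus strand for Marco and chr7:25788734-25788983 on the minus strand for Axl.
Mrc1: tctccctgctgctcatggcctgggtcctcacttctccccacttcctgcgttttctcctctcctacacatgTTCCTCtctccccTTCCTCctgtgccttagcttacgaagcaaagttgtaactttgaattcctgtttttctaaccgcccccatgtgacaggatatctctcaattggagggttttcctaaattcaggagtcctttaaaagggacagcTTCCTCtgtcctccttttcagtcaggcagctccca
Mertk: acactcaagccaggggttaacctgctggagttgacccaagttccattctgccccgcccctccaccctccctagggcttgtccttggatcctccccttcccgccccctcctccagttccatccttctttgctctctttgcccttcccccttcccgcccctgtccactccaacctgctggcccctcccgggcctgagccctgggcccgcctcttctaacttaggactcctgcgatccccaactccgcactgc
Marco: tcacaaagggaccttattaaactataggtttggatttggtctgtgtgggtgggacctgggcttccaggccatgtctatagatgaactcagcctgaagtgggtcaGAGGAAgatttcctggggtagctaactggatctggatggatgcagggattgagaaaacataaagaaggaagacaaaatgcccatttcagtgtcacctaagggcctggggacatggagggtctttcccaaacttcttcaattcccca
Axl: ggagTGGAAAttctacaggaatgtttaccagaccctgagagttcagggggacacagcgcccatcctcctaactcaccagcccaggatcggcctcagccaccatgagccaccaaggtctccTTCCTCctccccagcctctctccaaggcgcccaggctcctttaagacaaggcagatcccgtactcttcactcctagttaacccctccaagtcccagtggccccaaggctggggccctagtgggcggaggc
The Mrc1 window held GAGGAA at 3 places, all on the opposite strand and starting 180, 167 and 35 bases before the start. The Marco window held it at 1 place and the Axl window at 1, while the Mertk window, the richest of the 4 in G and C at 63.6%, held none of the motifs. Promoters were at hand for 8 of the 10 genes, all but Msr1 and Scarb1. Over the full windows of 300 bases, 50 of them past the start, GAGGAA was present in 4 of the 8 (Axl, Marco, Mrc1 and Stab1) and in 28.1% of 32544 mouse promoters. TGGAAA was present in Axl, Cd163 and Cd36 against 21.5% of all promoters, and AGGTCA in Cd36 and Timd4 against 16.2%. The Cd36 window, chr5:17835847-17836146 on the minus strand, lies at a start inside the annotated gene, which reaches base 17888959. TGCTGAC was present in Timd4 alone of the 8 and in 4.65% of all promoters, and TATAAA in none of the 8 and in 13.6%. None of the 5 motifs was present in every lower receptor and missing from the others, and a match of so few letters describes the window only.

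Of the 10 receptor genes, 8 were measured, and 5 of these were lower by 1.5-fold or more in the HSD group. Mrc1, Mertk, Msr1, Cd36 and Stab1 were the lower genes, Marco, Axl and Scarb1 stayed within 1.5-fold, and none of the 8 was at least 1.5-fold higher. Among all 16316 genes with a measured probe, 10.3% were at least 1.5-fold lower and 9.86% at least 1.5-fold higher. The median log2 fold change of the 8 receptors was −1.14, against 0.045 over all genes. Of all counted genes, 48.9% were higher, or 38.5% after cyclic loess between the arrays, and the 5 receptors were lower in both cases.

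**Figure D1:**
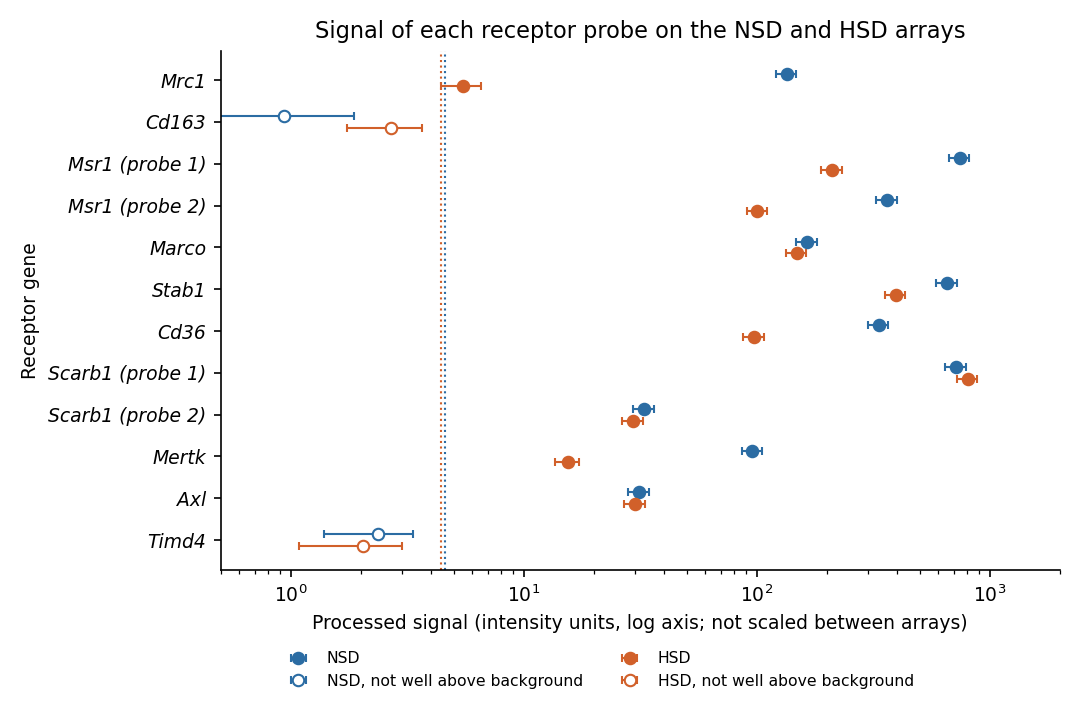
Processed signal of each of the 12 receptor probes in intensity units on a log axis, for NSD (blue) and HSD (orange), with the scanner software's error as bars. Open points were not well above background, dotted lines mark the lowest signal called well above background on each array, and the error bar of Cd163 for NSD runs off the left edge. Mrc1 fell from 134.3 to 5.49 units, and the pairs of points for Marco and Axl overlap within their bars.

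The mannose receptor gene Mrc1 changed most of the 8. MRC1 (CD206) is a lectin that takes up glycoproteins ending in mannose and binds collagen fragments, and it is widely used to mark alternatively activated macrophages. Its probe had a signal of 134.3 ± 13.5 units for NSD and 5.49 ± 1.09 units for HSD, a log2 fold change of −4.50 ± 0.32 and a 22.6-fold lower signal. Of the 15209 genes measured on both arrays it had the second-largest fall, so that 0.0132% of genes fell by as much. The HSD signal lay just above the limit of detection. There, spots of the same probe on the array differed by a median of 0.31 on the log2 scale and by 1.13 at the 95th percentile, both below the difference between the diets. With limma's normexp background correction and an offset of 50, which compresses dim signals, its log2 fold change was −1.56.

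Msr1 encodes the class A scavenger receptor CD204, which binds acetylated and oxidised lipoproteins and bacterial surface molecules. Its probes gave similar values. The brighter one had 742.5 ± 74.3 units for NSD and 210.4 ± 21.1 units for HSD, a log2 fold change of −1.70 ± 0.20. The other had 363.0 ± 36.3 and 100.6 ± 10.1 units, with −1.74 ± 0.20. The transcript was thus 3.26-fold lower by one probe and 3.33-fold lower by the other, and 1.02% of genes fell by as much as the brighter.

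Marco encodes the other class A receptor of the group, a collagen-like trimer that binds bacteria and particles. Its signal was 164.5 ± 16.5 units for NSD and 148.4 ± 14.9 units for HSD. The log2 fold change of −0.034 ± 0.20 was smaller than its error, and its sign turned under the normexp correction, to 0.019. Msr1 and Marco, similar in structure and ligands, therefore had log2 fold changes that lay 1.67 apart, with a scanner error of 0.20 on each.

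Stab1 encodes stabilin-1, a large receptor that clears acetylated lipoprotein, matrix proteins and cells bearing phosphatidylserine. It had 655.4 ± 65.5 units for NSD and 395.6 ± 39.6 units for HSD. The log2 fold change of −0.61 ± 0.20, or 1.53-fold lower, lay just past the size that was counted, and 8.71% of the genes measured on both arrays fell by as much. With the normexp correction it was −0.54, short of 1.5-fold. Cd163, which encodes the receptor for haemoglobin bound to haptoglobin, had a signal of 0.934 units for NSD and 2.69 for HSD. Neither value was well above background, so no fold change is given.

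Of the class B receptors, Cd36 was lower and Scarb1 was not. CD36 takes up oxidised lipoprotein and long-chain fatty acids, and binds thrombospondin-1 and apoptotic cells. Its probe had 334.5 ± 33.5 units for NSD and 97.6 ± 9.80 units for HSD. The log2 fold change was −1.66 ± 0.20, a 3.17-fold lower signal, and 1.06% of genes fell by as much. SCARB1 moves cholesteryl ester between high-density lipoprotein and cells. Its brighter probe had 716.6 ± 71.7 units for NSD and 805.2 ± 80.5 units for HSD, with a log2 fold change of 0.28 ± 0.20. Its dimmer probe had 32.8 ± 3.41 and 29.4 ± 3.08 units, with −0.044 ± 0.21, so that the sign of Scarb1 depended on the probe. Cd36 and Scarb1 differed by 1.95 in their log2 fold changes.

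The receptor tyrosine kinases of the group also differed. MERTK drives the quiet removal of apoptotic cells by macrophages. Mertk had a signal of 95.9 ± 9.64 units for NSD and 15.4 ± 1.78 units for HSD, a log2 fold change of −2.52 ± 0.22. The signal was 5.75-fold lower, a fall reached by 0.348% of the genes measured on both arrays, and the HSD value was well clear of the detection limit although spots of that brightness differed by 0.68 on the log2 scale at the 95th percentile. Under normexp it was −1.01. AXL, the kinase that inflammatory signals raise in myeloid cells, prefers GAS6 as its ligand. Axl had 31.2 ± 3.27 units for NSD and 30.1 ± 3.15 units for HSD, a log2 fold change of 0.061 ± 0.21 that was smaller than its error. The fold changes of Mertk and Axl lay 2.58 apart on the log2 scale. TIM-4, encoded by Timd4, tethers dying cells on resident macrophages. Its signals of 2.37 units for NSD and 2.05 for HSD were both too dim for the call well above background, and no fold change is given.

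**Figure D2:**
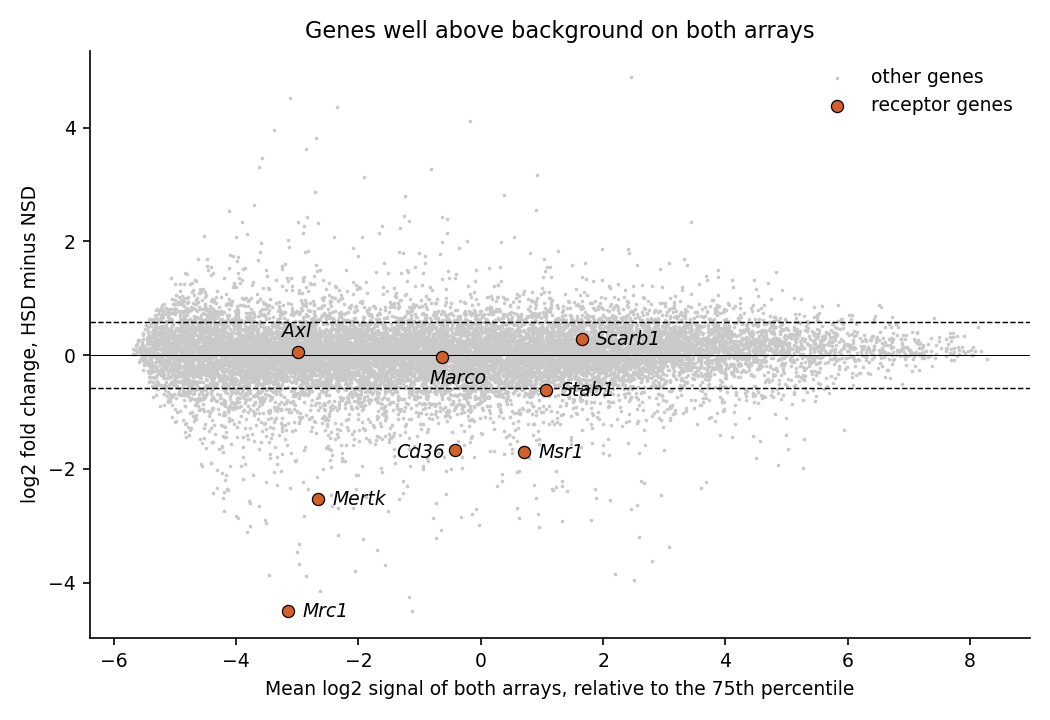
Log2 fold change (HSD minus NSD) against mean log2 signal of both arrays relative to the 75th percentile, for the 15209 genes measured on both arrays (grey) and the 8 measured receptors (orange). Dashed lines mark 1.5-fold. Mrc1 at −4.50 and Mertk at −2.52 lie among dim genes at the lower edge, Msr1 at −1.70 and Cd36 at −1.66 lie among brighter genes, and Marco, Axl and Scarb1 lie within the lines.

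The falls of Mrc1, Mertk, Msr1 and Cd36 were at least 1.5-fold under each of the alternatives tried. Their log2 fold changes ranged from −4.57 to −1.56 for Mrc1, from −2.56 to −1.01 for Mertk, from −1.79 to −1.40 for Msr1 and from −1.72 to −1.25 for Cd36. In each of the 4 the smallest value came from the normexp correction. Mrc1, Mertk and Cd36 have 1 probe each, measured on both arrays. The filters on dim probes and the choices of probe therefore could not change their values. Stab1 ranged from −0.68 to −0.54 and Axl from 0.021 to 0.16.

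**Figure D3:**
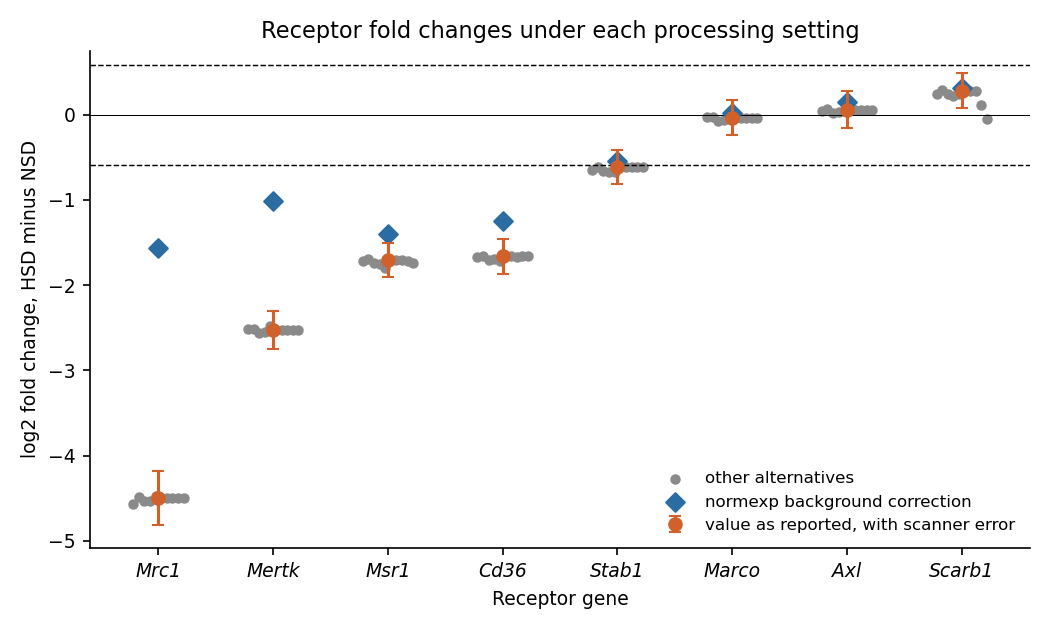
Log2 fold change (HSD minus NSD) of the 8 measured receptors as reported (orange, with the scanner error), with normexp background correction (blue diamonds) and under the other alternatives (grey). Dashed lines mark 1.5-fold. The normexp values of Mrc1 (−1.56) and Mertk (−1.01) lie far above the reported ones, and no value of Mrc1, Mertk, Msr1 or Cd36 crosses the lower line.

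The genes around the receptors were taken from 10 lists that hold 127 other genes of the uptake pathway, of which 120 were measured. Of these, 28 (23.3%) were at least 1.5-fold lower and 7 (5.83%) at least 1.5-fold higher, beside the 10.3% and 9.86% of all genes. The median of 0.0092 lay close to that of all genes. The lower genes were spread unevenly over the lists, from none of 9 to 6 of 12, and these counts describe the lists without a test. Because the lists were chosen with earlier results of these data known, their shares cannot be weighed against those of all genes.

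Of 13 measured genes for other scavenger receptors, 2 were lower and 1 was higher, with a median log2 fold change of −0.25 that turned to 0.092 with the normexp correction. Colec12, a collectin with a scavenger domain, fell from 670.5 to 324.5 units (log2 fold change −0.93). Lrp1, which takes up lipoproteins and haem-bound hemopexin, fell from 247.7 to 126.7 units (−0.85). Cd5l, a secreted scavenger protein of macrophages, rose from 139.5 to 194.7 units (0.60). It was short of 1.5-fold under 3 of the 11 alternatives that keep the 1.5-fold threshold. For a gene with 1 probe measured on both arrays, such as Cd5l, Elmo1 or Chil3, the filters on dim probes and the probe choices among them cannot change the value.

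Of 13 measured genes for other receptors of apoptotic cells, 4 were lower and none was higher. Trem2, a lipid-binding receptor of macrophages and microglia, fell from 3348 to 669.4 units, a log2 fold change of −2.21. Itgb5, the integrin chain that binds dying cells coated with MFG-E8, fell from 604.3 to 189.6 units (−1.56), and Havcr2, which encodes TIM-3, from 137.3 to 45.9 units (−1.47). Adgrb1, which encodes the phosphatidylserine receptor BAI1, fell from 167.5 to 37.3 units (−2.05), but its dim second probe went from 5.89 to 8.18 units (0.59). Tyro3, the remaining kinase of the MERTK and AXL family, had 20.0 and 25.3 units by its brighter probe (0.45). Its other probe had 4.82 and 10.7 units and was not well above background for NSD, which gives a rise of at least 1.27 on the log2 scale. With each gene's dimmest probe 3 genes of the list were higher, and with the median over probes 2 were. The integrin chain genes Itgav and Itgb3 had log2 fold changes of 0.14 and 0.20.

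Of the 12 genes for bridging molecules and opsonins, 6 were lower and none was higher, with a median of −0.43. Gas6, the ligand of both MERTK and AXL, fell from 129.5 to 31.0 units, a log2 fold change of −1.95, and Pros1, which encodes protein S, from 34.3 to 16.2 units (−0.97). Thbs1, which encodes the CD36 ligand thrombospondin-1, fell from 600.2 to 79.7 units (−2.80). C1qc, a chain of the complement opsonin C1q, fell from 52.6 to 5.61 units (−3.11), and C1qa was not well above background for HSD and at least 2.56-fold lower. C1qb, the remaining chain of the same protein, had 50.4 units for NSD and 58.4 for HSD (0.33). The chains, each with 1 measured probe, thus did not move together. Apoe, the lipoprotein ligand, fell from 7119 to 4337 units (−0.60). With the normexp correction the values were −0.27 for Pros1 and −0.074 for C1qa, neither past 1.5-fold, and 4 genes of the list were lower. C1qc, whose HSD signal lay just above the limit of detection, then had −0.74.

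Inside the cell, the genes for the engulfment machinery showed a different picture. Of 13 measured, 1 was lower and 1 higher, and 10 had values above 0, with a median of 0.36. Dock1, an exchange factor that turns on Rac during engulfment, fell from 260.9 to 133.3 units (−0.85). Its partner Elmo1 rose from 43.7 to 62.2 units (0.62) and was short of 1.5-fold under 2 of these 11. Rac2, the Rac of blood cells, had a log2 fold change of 0.49. Rac1 had −0.073 by its brighter probe and 0.38 by its dimmer one, so its sign depended on the probe.

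Genes of lipid handling after uptake held the most lower genes by number, 8 of 19, with 2 higher and a median of −0.29. The fatty acid carriers Fabp4 and Fabp5 fell from 543.5 to 69.6 units (−2.85) and from 10623 to 2815 units (−1.80). Pparg, the nuclear receptor for fatty acid ligands, fell from 86.5 to 23.5 units (−1.76). Nr1h3, which encodes the oxysterol receptor LXRα, fell by both of its probes, from 525.1 to 151.6 units (−1.68) and from 110.5 to 36.1 units (−1.50). Of the cholesterol exporters, Abcg1 fell from 1067 to 483.1 units (−1.03), while Abca1 had 611.1 and 489.5 units (−0.21). Ppard rose from 679.0 to 1118 units (0.83), in the direction opposite to Pparg.

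None of the 9 genes for signals that restrain uptake was past 1.5-fold by its brightest probe. With each gene's dimmest probe 1 was higher, Pilra, which went from 2028 to 2839 units (0.60). Cd47, the surface signal against being eaten, had a log2 fold change of 0.24, and its receptor gene Sirpa had −0.0081. Of 5 measured genes of receptor shedding, 1 was past 1.5-fold. This was Timp3, an inhibitor of the shedding proteases, which fell from 34.7 to 12.99 units (−1.30), or by −0.36 with the normexp correction. Adam17, the protease that cleaves MERTK from the surface, had 0.47, and Adam10 had −0.079.

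Of the 12 genes for haem and iron handling, Hpx (1.12, from 7.22 to 14.5 units) and Lrp1 (−0.85) were past 1.5-fold, Hpx no longer so with the normexp correction (0.24). Hp, which encodes haptoglobin, the CD163 partner, had a signal of 47295 units for NSD and 47439 for HSD, and Hmox1, which breaks down haem, had a log2 fold change of 0.35. The list's median of 0.12 turned to −0.027 with cyclic loess.

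Among 13 transcription factors of macrophage receptors, 2 were lower and 1 higher. Maf fell from 1409 to 263.9 units (−2.30) and Spic, which marks macrophages that recycle iron, from 241.1 to 41.4 units (−2.43). Irf4 rose from 83.1 to 131.5 units (0.78), or by 0.51 with the normexp correction, short of 1.5-fold. Spi1, which encodes PU.1, had a log2 fold change of 0.23 and Klf4 of −0.011. The median of 0.0045 lay near 0 and changed sign under 4 of these 11.

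Of 12 measured genes of alternative activation, the state that MRC1 is used to mark, 4 were lower and 1 was higher. Folr2 fell from 44.1 to 6.88 units (−2.57), Clec10a from 174.4 to 47.2 units (−1.77) and Ccl24 from 16.5 to 8.70 units (−0.81), and Cd209a was at least 2.997-fold lower. With the normexp correction Ccl24 (−0.091) and Cd209a (−0.24) were short of 1.5-fold, which left 2 lower genes. Chil3 rose from 34255 to 49710.3 units (0.65) and was short of 1.5-fold under 3 of these 11. The median of 0.23 had the sign opposite to that of Mrc1. Arg1 was dim on both arrays and has no fold change.

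**Figure D4:**
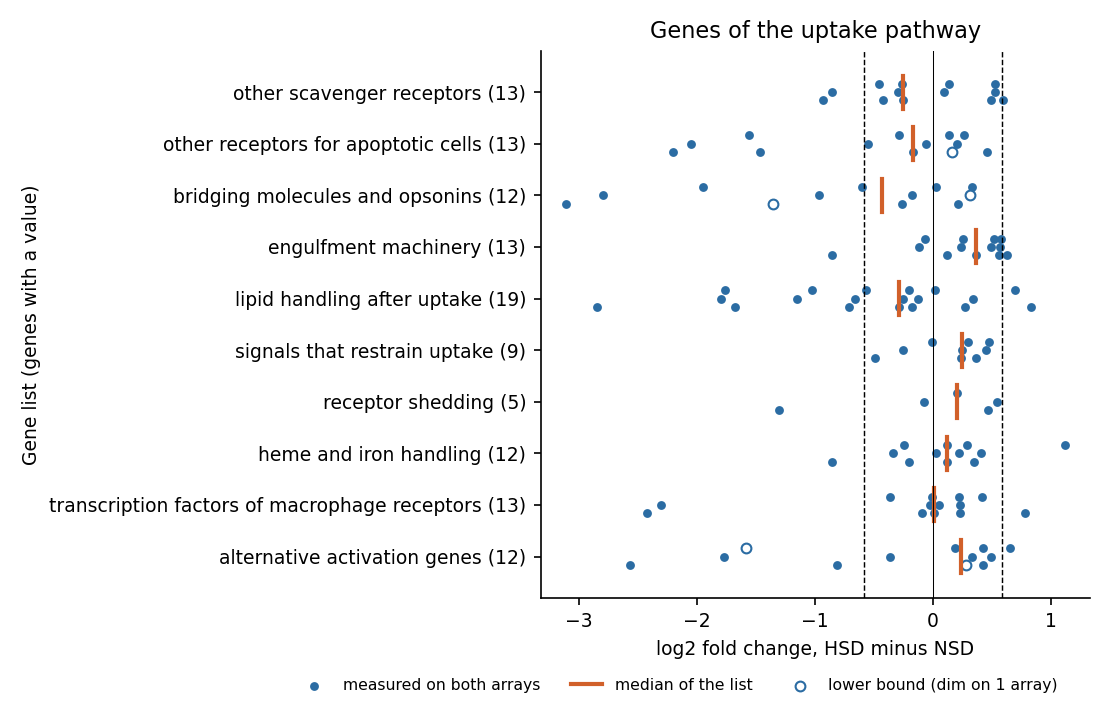
Log2 fold change (HSD minus NSD) of each measured gene in the 10 lists of the uptake pathway, with the number measured in brackets and the median of the list as a bar. Dashed lines mark 1.5-fold and open points are lower bounds. The lists of bridging molecules (6 of 12) and lipid handling (8 of 19) hold 14 of the 28 lower genes, and the engulfment machinery lies mostly to the right of 0.

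Transcripts of other cell types moved beside the receptors. A summed signal adds the brightest probes of a list's genes and is compared only with the same sum for the other diet. In pooled cells fewer cells of a type and less RNA per cell cannot be told apart. Of 6 macrophage genes measured, 3 were lower and none was higher by 1.5-fold or more. The median was −0.95, and their summed signal was 18487 units for NSD and 12455 for HSD (0.729 of NSD after scaling). The median takes in C1qa, a lower bound measured for NSD only, and was −0.55 over the 5 genes measured on both arrays and −0.47 with the normexp correction. Fcgr1, the high-affinity IgG receptor gene, fell from 304.7 to 21.9 units (−3.68), and C1qa and C1qc were the other 2. The defining genes Adgre1, which encodes F4/80, and Csf1r were still bright, with 6723 and 11343 units for NSD and 4252 and 8112 for HSD, and log2 fold changes of −0.55 and −0.37. By its dimmer probe Adgre1 had −0.25. It was past 1.5-fold with quantile normalization (−0.63), scaling on detected probes (−0.59), cyclic loess (−0.65) and the deposited values (−0.63). Under each of these, 4 macrophage genes were lower, and with cyclic loess the median of the list was −1.07. The macrophage genes thus spanned log2 fold changes from −3.68 for Fcgr1 to 0.33 for C1qb, beside −4.50 to 0.28 for the receptors. The part of macrophage numbers in the receptor values was not tested.

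Most platelet genes were lower too, but not all. Of 7 measured, 4 were lower by 1.5-fold or more and none was higher by as much. Gp9 had a log2 fold change of −0.46. Gp1bb had 0.36, 0.54 and 0.84 by its 3 probes, from the brightest to the dimmest. Tubb1, not well above background for NSD, was at least 0.46 higher on the log2 scale. The median was −0.89, with a summed signal of 1444 units for NSD and 297.3 for HSD, or 0.223 of NSD after scaling. Pf4 alone made up most of both sums. With the normexp correction the median was −0.054. Pf4 fell from 1332 to 245.1 units (−2.33), Ppbp from 47.9 to 9.46 units (−2.23), Gp1ba from 22.6 to 7.73 units (−1.44) and Itga2b from 13.9 to 6.94 units (−0.89), of which only Pf4 was past 1.5-fold with the normexp correction. Cd36 and Thbs1 are expressed in platelets as well as in macrophages, and the part of platelets in their values was not tested.

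Endothelial cells also carry Stab1, Cd36 and Scarb1. Of 7 measured endothelial genes 1 was lower, Flt1 (40.7 to 24.5 units, −0.62, and −0.25 with the normexp correction), and none was higher. The summed signal was 480.5 units for NSD and 467.8 for HSD, which is 1.05 of NSD after scaling. Vwf alone held the largest part of both sums, 248.6 units for NSD and 238.6 for HSD. The sums take Kdr by its brighter probe (0.28), whereas the other probe of Kdr fell from 124.2 to 20.4 units (−2.49). With the median over probes, or with each gene's dimmest probe, 2 endothelial genes were lower. The defining genes Emcn and Tie1 were not well above background on either array, and Cdh5 had 5.30 units for NSD and 2.93 for HSD. Adipocytes carry Cd36, Fabp4, Pparg and Lpl. Of 4 measured adipocyte genes none was lower and Adipoq, not well above background for NSD, was at least 6.91-fold higher, or 0.52 on the log2 scale with the normexp correction, short of 1.5-fold. The genes Lep and Cfd were not well above background on either array.

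The remaining cell types moved less or by few genes. Of 7 monocyte genes 1 was lower and 1 higher, with a median of −0.13 and summed signals of 106726 units for NSD and 97030.1 for HSD, or 0.984 of NSD after scaling. These were Ccr2 (−0.78) and Vcan (0.67), the latter short of 1.5-fold with the normexp correction. None of 8 neutrophil genes was past 1.5-fold, with summed signals of 368457 and 356801 units, or 1.05 of NSD after scaling. Of 7 dendritic cell genes Itgax (0.74) and Clec9a (0.80) were higher and Cd209a lower, of which only Itgax was past 1.5-fold with the normexp correction. Of 5 fibroblast genes Pdgfrb (0.59) was higher and Col3a1 (−1.09) and Dcn (−0.80) were lower, none of them past 1.5-fold with the normexp correction. Of 6 T and NK cell genes 1 was lower, Cd3e (−1.09). Of 7 genes of 4T1 carcinoma cells 3 were higher, Krt8 (0.61), Krt18 (0.76) and Epcam (0.70), and none was so with the normexp correction. None of 4 erythroid genes and 5 B cell genes was past 1.5-fold. The part of these cells in the receptor values was not tested.

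**Figure D5:**
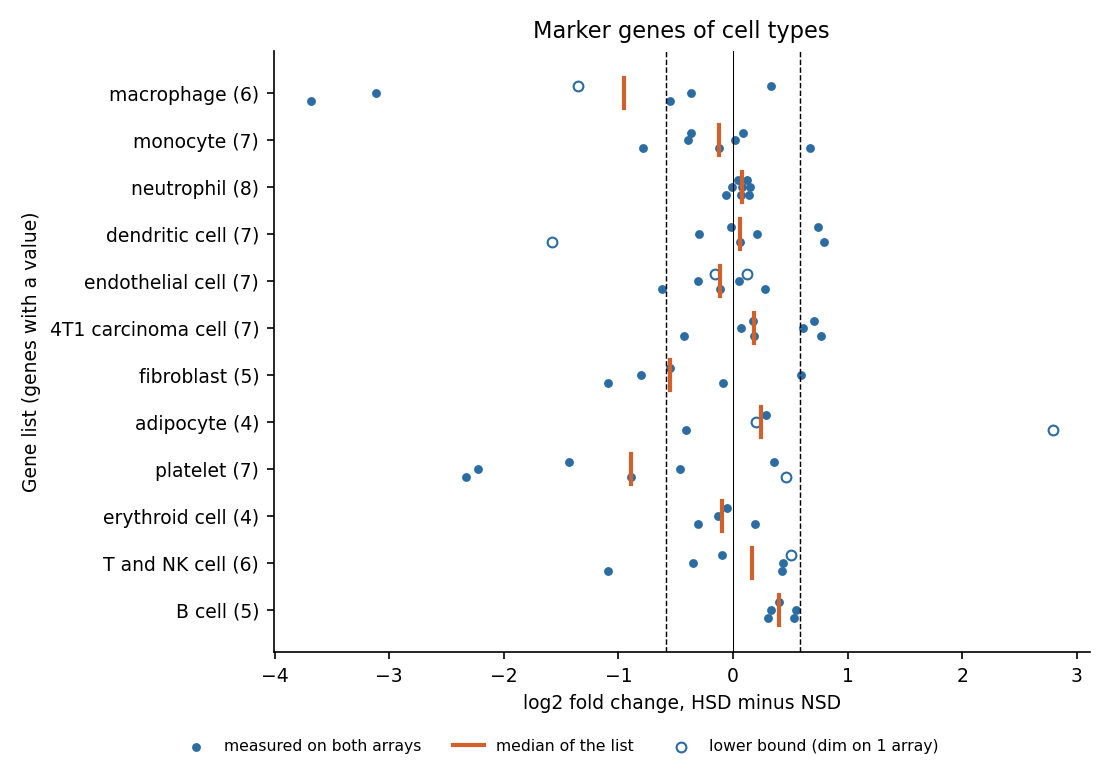
Log2 fold change (HSD minus NSD) of each measured marker gene in 12 cell type lists, with the number measured in brackets and the median of the list as a bar. Dashed lines mark 1.5-fold and open points are lower bounds. As reported, the macrophage and platelet medians lie at −0.95 and −0.89, but at −0.47 and −0.054 with the normexp correction, and the 8 neutrophil genes lie between −0.059 and 0.15.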

How the data were processed

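RNA of M-MDSCs from 4T1 tumours was measured on Agilent Mouse GE v2 arrays (single dye, Cy3), 1 array per diet. The authors deposited each array's scanner output, whose processed signal is an intensity corrected for background and spatial trends by Feature Extraction 11.0.1.1 but not normalized between arrays. Normalized log2 values that the authors deposited, made in GeneSpring by an unnamed method, served as an alternative.

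Control spots and outlier-flagged spots (162 for NSD, 179 for HSD) were left out, spots of a probe were averaged as log2 processed signal, and each array's 75th percentile was subtracted. A probe with several spots was well above background when at least 50% of them were. Where it was so on 1 array only, the fold change is only a lower bound, taken against its dim signal or the lowest signal called well above background on that array, whichever was higher. Identifiers were matched without versions to RefSeq (GRCm38.p6), and 27223 of 39413 probes received a gene name. The array was designed on an older assembly, so no probe coordinates are given. Promoters came from RefSeq. The scanner error of a fold change combines the software's signal errors of both arrays.

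The receptors and lists were chosen with earlier results of these data known. Of each list, up to 4 genes with the largest change past 1.5-fold, measured on both arrays, were named by rule, and any others after their values were seen. Precision is limited by the number of arrays, which shared 1 slide. Counting was tested on simulated data whose noise was the same at all signals. That noise was smaller than the spread of dim spots, so the check covers the counting step only. The 12 alternatives covered background correction, scaling, filters, flagged spots, probe choice and threshold. Normexp was run on the deposited median signal and median background intensities. An item of the lists is not reported here and entered no count of a list. Software was R 4.3.3, limma 3.58.1, Python 3.11.15, matplotlib 3.10.9, pandas 2.3.3 and numpy 2.4.6.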

Additional observations from a re-analysis of the deposited data

How the results depend on the processing

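No paired analysis was possible because each diet has 1 array, and no replicate could be left out. Under the 12 alternatives the number of receptors at least 1.5-fold lower was 4 or 5. It was 4 with the normexp correction, which left Stab1 short of 1.5-fold, and 4 with a 2-fold threshold. The median of the receptors was −0.77 with the normexp correction and −0.36 without a filter on dim probes, which adds Cd163 and Timd4. Without that filter 1 receptor was higher, Cd163, dim on both arrays. Of all genes, 625 were higher and 655 lower with the normexp correction, 428 and 681 at 2-fold, and 2903 higher without the filter, against 1609 and 1682 as reported. Of the pathway genes, 7 were higher as reported, 2 with the normexp correction, 11 with each gene's dimmest probe and 1 at 2-fold, and between 20 and 30 were lower. Signal over background limits Mrc1 for HSD and allows no statement on Cd163 and Timd4.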

Other observations

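Some genes of the lists had a second probe that did not follow the first. Itgb3 had 585.2 units for NSD and 621.1 for HSD by its brighter probe (log2 fold change 0.20), and 6.38 and 27.1 units by its dimmer one (2.20). Kdr, the endothelial receptor for VEGF, had 150.1 and 168.7 units by one probe (0.28), and 124.2 and 20.4 units by the other (−2.49). Rxra, the partner of PPARγ and LXRα, had 49.4 and 41.6 units by its brighter probe (−0.13), and 34.3 and 14.4 units by its dimmer one (−1.14). Ftl1, the ferritin light chain, had 35761 and 35901 units by its brighter probe (0.12), and 30442 and 18530 units by its dimmer one (−0.60). Both probes of Msr1 and of Nr1h3 moved alike.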
